A study of Mus musculus with 12 samples.

Results

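The genes described here encode the mouse receptors that bind the constant part of immunoglobulin G: the activating receptors Fcgr1, Fcgr3 and Fcgr4, the inhibitory receptor Fcgr2b, the signalling chain Fcer1g and the heavy chain of the neonatal Fc receptor, Fcgrt. They were chosen by gene symbol, with earlier results of these data known, and make up 6 of the 34745 genes in the expression table of the series. RNA came from total femoral bone marrow cells of male ICR mice, an outbred stock, and each library is 1 mouse. The normal group (n = 3) received saline only. The model group (n = 3) received saline by mouth and 80 mg/kg/day of cyclophosphamide, an alkylating drug that kills dividing cells, from day 5 to day 7. The QJSB group (n = 3) received the same cyclophosphamide and 3 g/kg/day of QJSB, a granule of herbal extracts, and the leucogen group (n = 3) received it with 20 mg/kg/day of leucogen, a cysteine analog given against leucopenia, each for 1 week. QJSB and leucogen were given only with cyclophosphamide, and the age of the mice is not given in the sources used here. Library totals ran from 11172547 to 18545198 counts, and levels are given as CPM, library-scaled counts after the TMM method. Normal libraries held markers of neutrophils, monocytes and macrophages, B cells and erythroid cells at summed levels of 18653 to 22064, 2208 to 2407, 1676 to 1718 and 8778 to 9733 CPM, with no marker of these lists at 0. The erythroid sum was 56.9 to 473 CPM in the libraries given cyclophosphamide.

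Fc gamma receptors let phagocytes take up and respond to particles coated with antibody. The activating receptors carry no signalling motif of their own in the mouse. They pair with the Fcer1g chain, whose activation motif is phosphorylated by Src family kinases and then recruits Syk. Fcgr2b carries an inhibitory motif that recruits the lipid phosphatase Inpp5d, and it is the Fc gamma receptor of B cells as well as of myeloid cells. Fcgrt pairs with beta-2 microglobulin (B2m), returns immunoglobulin G and albumin from endosomes to the cell surface and so protects them from breakdown. It stands apart from the other members, since it binds inside the cell and does not signal through Fcer1g.

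Fcgr2b, Fcgr4, Fcgr3 and Fcer1g lie within 276 kb of chromosome 1 (GRCm38), at chr1:170958617-170976547, chr1:171018920-171029761, chr1:171051174-171064935 and chr1:171229572-171234365. Fcgr1 lies at chr3:96282909-96293969 and Fcgrt at chr7:45092993-45103822. The promoters of the 3 members whose level passed a test between groups are given here as in RefSeq (GRCm38.p6, minus strand), from 250 bases before to 50 bases after the start site: Fcgr1 at chr3:96293920-96294219, Fcgr2b at chr1:170976022-170976321 and Fcgrt at chr7:45103773-45104072. Capitals mark matches to the motifs searched on both strands, which were GAGGAA (the core bound by PU.1, a myeloid transcription factor) and a form of the interferon-stimulated response element, GAAA followed by any 2 bases and a further GAAA. No 2 matches overlapped.
Fcgr1 promoter: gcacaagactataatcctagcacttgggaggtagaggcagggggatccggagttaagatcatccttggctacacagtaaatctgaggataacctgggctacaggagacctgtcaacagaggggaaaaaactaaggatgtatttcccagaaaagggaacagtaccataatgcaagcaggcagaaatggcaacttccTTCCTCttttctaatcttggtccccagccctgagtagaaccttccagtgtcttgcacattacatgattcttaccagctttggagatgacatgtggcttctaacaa
Fcgr2b promoter: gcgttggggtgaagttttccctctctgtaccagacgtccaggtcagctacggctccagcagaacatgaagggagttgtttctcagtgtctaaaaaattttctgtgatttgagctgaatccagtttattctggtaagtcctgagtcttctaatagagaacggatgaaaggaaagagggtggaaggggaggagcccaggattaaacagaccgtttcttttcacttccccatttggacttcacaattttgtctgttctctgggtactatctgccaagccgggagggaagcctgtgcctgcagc
Fcgrt promoter: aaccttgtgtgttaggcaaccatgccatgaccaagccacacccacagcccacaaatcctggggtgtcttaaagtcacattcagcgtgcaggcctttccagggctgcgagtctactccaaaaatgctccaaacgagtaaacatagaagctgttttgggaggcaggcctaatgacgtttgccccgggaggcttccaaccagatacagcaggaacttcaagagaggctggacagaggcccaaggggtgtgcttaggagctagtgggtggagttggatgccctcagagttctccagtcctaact
The Fcgr1 window held the reverse complement of the PU.1 core, TTCCTC, at base -55 from the start site. The windows of Fcgr2b, Fcgrt and Fcer1g held none of these letters. Fcgr4 held TTCCTC at base -22 and a match to the interferon-stimulated response element at base -73, and the 2 overlapping RefSeq windows of Fcgr3 held the same TTCCTC, at base -6 of one and base -15 of the other. Over the 32851 promoter windows of this length, 28.3% held the PU.1 core and 3.44% the interferon-stimulated response element. These matches describe letters and were not tested as sites.

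Fcgr2b and Fcgr3 share sequence in the part that encodes their antibody-binding domains, and this bears on how their counts can be read. The longest run of identical coding bases is 129 long, from base 278 of the Fcgr2b coding sequence and from base 263 of that of Fcgr3. It crosses an exon junction in both genes, so that its genomic ends, chr1:170966674-170968081 in Fcgr2b and chr1:171054167-171057792 in Fcgr3 (GRCm38, minus strand), enclose an intron. The run is shown because a read that falls wholly inside it cannot be assigned to either gene.
Run shared by Fcgr2b and Fcgr3: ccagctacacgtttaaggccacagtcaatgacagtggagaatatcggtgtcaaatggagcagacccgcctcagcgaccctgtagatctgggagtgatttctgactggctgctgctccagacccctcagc
Of the possible 50-base reads of the coding sequence, 17% of those from Fcgr2b and 22% of those from Fcgr3 had a perfect match in the other gene. At 100 bases these shares were 4.76% and 6.24%. No other pair of members shared a stretch of 50 bases. How such reads were counted is not given in the sources used here, so the levels of these 2 genes hold this uncertainty.

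Per kilobase of the longest transcript, Fcgr3 and Fcer1g led in normal marrow, with 92.3 ± 6.79 and 92.2 ± 11.1 CPM per kb (SD, n = 3), and these neighbours did not differ beyond their spread. Fcgr2b followed with 31.7 ± 2.26 CPM per kb (SD, n = 3), then Fcgr4 with 10.3 ± 2.38 and Fcgrt with 6.98 ± 0.549. Fcgr1 was the lowest, with 0.657 ± 0.101 CPM per kb (SD, n = 3). The order of Fcgr2b, Fcgr4, Fcgrt and Fcgr1 by group mean was the same in the model, QJSB and leucogen groups, and Fcgr3 and Fcer1g stood above them, but Fcgr4 and Fcgrt overlapped within their SD in model and QJSB. The length behind the deposited FPKM was 1256 bases for Fcgr4, as in its longest annotated transcript, and 1738 against 1770 for Fcgrt. It was 3829 against 1347 for Fcgr3, 7526 against 3544 for Fcgr2b and 1605 against 683 for Fcer1g. The order is therefore given on the per kb scale, and the distances between genes depend on the length used. In FPKM, Fcgr2b and Fcgr4 lay closer in normal, at 14.6 ± 0.954 and 10.2 ± 2.36 (SD, n = 3).

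After cyclophosphamide alone, Fcgr1 was 3.01-fold and Fcgr2b 1.64-fold higher than in normal marrow, while Fcgr3, Fcgr4, Fcer1g and Fcgrt passed no test. In leucogen marrow Fcgr1 was lower than in model and did not differ detectably from normal. Fcgr2b was again above normal there, and Fcgrt was lower than in the normal, model and QJSB groups. Between QJSB and model no member passed. A gene counted as changed when its fold was over 1.5 and its adjusted p under 0.05 in the quasi-likelihood test of edgeR, adjusted by the Benjamini-Hochberg method over all genes tested, and every adjusted p-value given for a gene is from that test. By this rule 2 of 6 members changed in model against normal, where 35.1% of all genes tested did, and 2 of 6 in leucogen against model, where 23.1% did. In leucogen against normal 2 of 6 changed beside 37.7% of all genes, in QJSB against normal 1 of 6 beside 37.9%, and in QJSB against leucogen 1 of 6 beside 24.6%. With 6 members none of these counts stands clearly above its background share, and nothing is read from the number that changed. The comparisons share libraries and are not independent of each other.

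**Figure D1:**
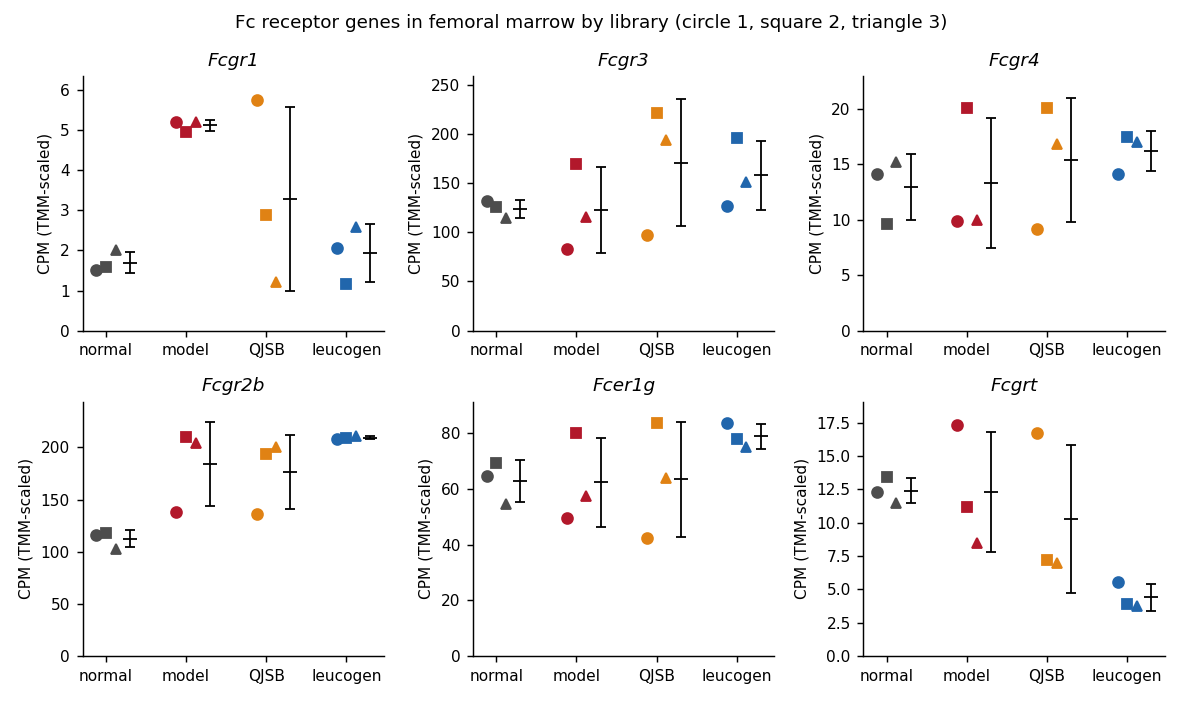
Level of each Fc receptor gene (CPM, TMM-scaled, linear axes from 0) in the 12 libraries; coloured marks are single mice, numbered by shape, and the black bar beside them is the mean ± SD (n = 3). The 3 model libraries of Fcgr1 lie between 4.97 and 5.20, above all normal and leucogen libraries, and the 3 leucogen libraries of Fcgrt, between 3.74 and 5.56, lie below all others.

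Fcgr1 encodes the high-affinity receptor for immunoglobulin G, which in the mouse is found on monocytes, macrophages and dendritic cells and is induced by interferon gamma. Its levels were 1.52, 1.58 and 2.00 CPM in normal 1 to 3 and 5.20, 4.97 and 5.20 CPM in model 1 to 3. The groups stood apart, and the rise in model had a log2 fold change of 1.59 ± 0.25 (SE, adjusted p = 0.00146). The QJSB libraries held 5.75, 2.89 and 1.22 CPM, so that QJSB 1 lay above every model library and QJSB 3 below every normal one. Leucogen libraries held 2.07, 1.16 and 2.59 CPM, all below the model libraries and across the normal range. Leucogen against normal gave a log2 fold change of 0.19 ± 0.36 (SE, adjusted p = 0.680, 95% interval -0.61 to 1.00). A difference past 1.5-fold between these groups thus remains possible. Fcgr1 was lower in leucogen than in model by a log2 fold change of -1.40 ± 0.33 (SE, adjusted p = 0.0161), which missed the threshold without leucogen 1 (-1.45, adjusted p = 0.0546). QJSB did not differ detectably from model (-0.65 ± 0.49 SE, adjusted p = 0.784, 95% interval -1.75 to 0.45) or from normal (0.97 ± 0.53 SE, adjusted p = 0.173), and the latter ran from 0.28 without QJSB 1 (adjusted p = 0.599) to 1.36 without QJSB 3 (adjusted p = 0.0326). Fcgr1 had only 16 to 107 counts per library, the fewest of the members, and its values carry the largest relative counting error.

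Summed levels of 16 monocyte and macrophage markers were, like Fcgr1, higher in model than in normal and lower in leucogen than in model. Unlike Fcgr1, the sum stayed above every normal library in leucogen, and it varied within model, where Fcgr1 was at 4.97 to 5.20 CPM. The sum was 2208 to 2407 CPM in normal, 3233 to 5528 in model, 2834 to 3769 in QJSB and 2641 to 3194 in leucogen, with no marker at 0 in any group. Of these 16 genes, 6 rose and 5 fell in model against normal, where 35.1% of all genes changed, and 1 rose and 5 fell in leucogen against model, where 23.1% did. In leucogen against normal 4 rose and 7 fell, where 37.7% of all genes changed. Their part in the change of Fcgr1 was not tested. In bulk marrow, a change in the number of cells of a type and a change in RNA per cell cannot be told apart, and this holds for every member.

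Fcgr3 and Fcgr4 encode the low-affinity and the intermediate-affinity activating receptors, both carried by neutrophils and monocytes. Fcgr3 was at 132, 126 and 114 CPM in normal, 82.5, 169 and 115 in model, 97.4, 221 and 194 in QJSB and 127, 196 and 151 in leucogen. Model and QJSB each spread wider than normal, with the first library of each below all normal libraries and the second above them. Fcgr4 was at 14.1, 9.61 and 15.2 CPM in normal, 9.93, 20.1 and 10.0 in model, 9.18, 20.1 and 16.8 in QJSB and 14.1, 17.5 and 17.0 in leucogen. All groups overlapped for both genes in every pair. Log2 fold changes in model against normal were -0.02 ± 0.24 (SE, adjusted p = 0.956) for Fcgr3 and 0.04 ± 0.32 (SE, adjusted p = 0.929) for Fcgr4, with 95% intervals of -0.57 to 0.53 and -0.68 to 0.76. Fcgr4 turned to -0.36 without model 2 (adjusted p = 0.249). In leucogen against normal Fcgr3 had a log2 fold change of 0.37 ± 0.14 (SE, adjusted p = 0.0576), and in QJSB against normal 0.47 ± 0.27 (SE, adjusted p = 0.195), which became 0.75 without QJSB 1 (adjusted p = 4.4e-04).

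Fcgr2b, the inhibitory receptor, was at 116, 118 and 103 CPM in normal, 138, 210 and 204 in model, 136, 194 and 200 in QJSB and 208, 209 and 211 in leucogen. Every library from a mouse given cyclophosphamide lay above every normal library, and the leucogen libraries were the closest together. The log2 fold change against normal was 0.72 ± 0.18 (SE, adjusted p = 0.0118) in model and 0.92 ± 0.08 (SE, adjusted p = 1.2e-05) in leucogen. In QJSB it was 0.66 ± 0.16 (SE, adjusted p = 0.0128), a call lost without normal 3 (0.60, adjusted p = 0.0555) and without QJSB 3, where the fold fell under the cutoff (0.57, adjusted p = 0.0432). The means of the 3 treated groups did not differ detectably from one another, with adjusted p-values from 0.260 to 0.942, although all 3 QJSB libraries lay below all 3 leucogen libraries. Summed levels of 10 B cell markers were 1676 to 1718 CPM in normal, 15.2 to 119 in model, 9.90 to 24.3 in QJSB, where Fcer2a was at 0, and 11.6 to 17.1 in leucogen. Of these markers 9 of 10 fell in model, and 10 of 10 in QJSB and in leucogen, all against normal, beside 35.1%, 37.9% and 37.7% of all genes called in either direction. Fcgr2b was thus higher in libraries whose B cell marker RNA was far lower, and which cells held it was not measured. Levels in CPM are relative to the rest of the library, for this gene as for every member. The erythroid marker sum was also far lower after cyclophosphamide (56.9 to 473 CPM, against 8778 to 9733 in normal). The part of such losses in the higher relative level of Fcgr2b was not tested.

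Fcer1g, the signalling chain, held 64.7, 69.5 and 54.6 CPM in normal, 49.4, 80.2 and 57.4 in model, 42.5, 83.8 and 64.0 in QJSB and 83.8, 77.8 and 75.2 in leucogen. The leucogen libraries all lay above the normal ones, and the other pairs of groups overlapped. In leucogen against normal the log2 fold change was 0.35 ± 0.11 (SE, adjusted p = 0.0226), which stayed below the fold cutoff. Against normal it was -0.01 ± 0.20 (SE, adjusted p = 0.971) in model and 0.02 ± 0.23 (SE, adjusted p = 0.945) in QJSB. The QJSB value turned to -0.22 without QJSB 2 (adjusted p = 0.422). In leucogen against model the values were 0.35 ± 0.19 (SE, adjusted p = 0.190), and without model 2 the difference passed for Fcer1g (0.60, adjusted p = 0.0174), Fcgr3 (0.71, adjusted p = 0.0493) and Fcgr4 (0.73, adjusted p = 0.0218).

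Fcgrt, the heavy chain of the neonatal Fc receptor, held 12.3, 13.4 and 11.5 CPM in normal, 17.3, 11.2 and 8.49 in model, 16.7, 7.18 and 7.01 in QJSB and 5.56, 3.92 and 3.74 in leucogen. The leucogen libraries lay below every other library. Fcgrt fell in leucogen by 2.75-fold against normal (log2 fold change -1.46 ± 0.20 SE, adjusted p = 1.8e-04) and by 2.78-fold against model (-1.47 ± 0.31 SE, adjusted p = 0.0105). The fall against model missed the threshold without leucogen 3 (-1.37, adjusted p = 0.0550). QJSB exceeded leucogen 2.30-fold (1.20 ± 0.38 SE, adjusted p = 0.0448), and this call was lost when QJSB 1 (0.66, adjusted p = 0.0832) or leucogen 1, 2 or 3 was left out (adjusted p = 0.0756, 0.128 and 0.154), with total counts in place of TMM (adjusted p = 0.0528) and on the FPKM values (adjusted p = 0.0657). Against normal, Fcgrt had log2 fold changes of -0.00 ± 0.26 (SE, adjusted p = 1.00) in model and -0.25 ± 0.35 (SE, adjusted p = 0.594) in QJSB, the latter -0.79 without QJSB 1 (adjusted p = 0.00483). B2m, its partner, passed in none of the 6 comparisons and held 323 ± 27.7 CPM in leucogen and 322 ± 23.2 in normal (SD, n = 3).

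Endothelial cells and macrophages are known sites of Fcgrt. Summed levels of 8 endothelial markers were 146 to 160 CPM in normal, 125 to 163 in model, 136 to 163 in QJSB and 91.6 to 118 in leucogen, none at 0. In leucogen, 1 of the 8 fell against model and 2 fell against normal, beside 23.1% and 37.7% of all genes called. Against normal, 6 of the 8 had a log2 fold change above 0 (median 0.22), and against model 1 of the 8 did (median -0.50). Summed monocyte and macrophage markers were 2641 to 3194 CPM in leucogen, above normal (2208 to 2407) and below model (3233 to 5528). Leucogen libraries also held the highest sums of 12 neutrophil markers, 47674 to 57060 CPM against 18653 to 22064 in normal, 4540 to 18835 in model and 6894 to 35386 in QJSB, none at 0. The part of these shifts in the fall of Fcgrt was not tested.

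**Figure D2:**
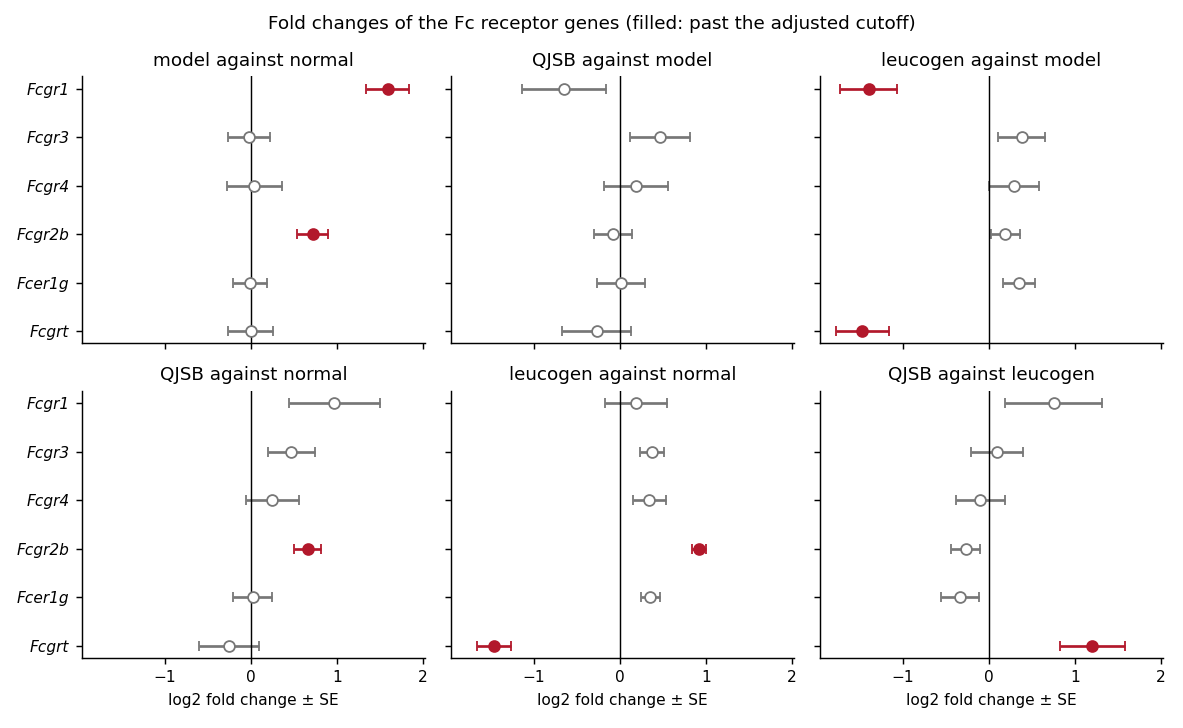
Log2 fold change (horizontal axis) of each Fc receptor gene in the 6 comparisons, as the first group named over the second; points are edgeR estimates, bars are ± 1 SE, and filled red points passed both the fold and the adjusted p cutoff. Fcgr1 stands at 1.59 in model against normal and Fcgrt at -1.47 in leucogen against model and -1.46 in leucogen against normal.

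QJSB against model asks whether the granule shifted these receptors in marrow treated with cyclophosphamide. None of the 6 members passed, and of all 14486 genes tested 0.00% passed the adjusted cutoff. At an unadjusted p under 0.05 there were 723 genes, the smallest adjusted p was 0.767, and 3.08% of genes passed the fold cutoff with an unadjusted p under 0.05, the cutoff of the study's methods, none of them a member. DESeq2 called 8 genes and edgeR with the replicate number as a block 18, again with no member. Fcgr1 (-0.65) ran from -1.33 without QJSB 1 (adjusted p = 0.207) to -0.25 without QJSB 3 (adjusted p = 0.973). Fcgr3 had a log2 fold change of 0.47 ± 0.35 (SE, adjusted p = 0.785, 95% interval -0.34 to 1.27). Fcgr2b, at -0.08 ± 0.22 (SE, adjusted p = 0.942), had an interval of -0.58 to 0.43, and Fcer1g, at 0.01 ± 0.28 (SE, adjusted p = 0.995), one of -0.62 to 0.64. Fcgrt, at -0.27 ± 0.40 (SE, adjusted p = 0.885), and Fcgr4, at 0.19 ± 0.37 (SE, adjusted p = 0.914), had intervals of -1.19 to 0.65 and -0.66 to 1.04. All 6 intervals hold 0. Those of Fcgr1, Fcgr3, Fcgr4, Fcer1g and Fcgrt reach past a 1.5-fold change, so that a difference of that size remains possible for these genes. That of Fcgr2b ends just short of it.

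For Fcgr3 the spread within model and QJSB ran in the order of their neutrophil marker RNA, and for the other members the order was less close. From the lowest to the highest neutrophil marker sum the 6 libraries were model 1, QJSB 1, model 3, model 2, QJSB 3 and QJSB 2. Fcgr3 followed the same order in all 6, from 82.5 to 97.4, 115, 169, 194 and 221 CPM (Spearman's rho 1.00). Fcgr4 and Fcer1g each had a rho of 0.89, Fcgr1 and Fcgrt of -0.89 and Fcgr2b of 0.43 (n = 6). These are descriptions, since the 6 libraries share 2 groups and a common scaling. Model 1 and QJSB 1 held the lowest sums, 4540 and 6894 CPM, and also the lowest Fcgr2b, Fcgr3 and Fcer1g and the highest Fcgrt of these 6 libraries. In leucogen the order did not carry over: its neutrophil marker sums exceeded those of every other library, while its Fcgr3, at 127 to 196 CPM, lay within the range of QJSB. Nor did it carry over to normal. Normal 1 and normal 2 had sums of 22022 and 22064 CPM with Fcgr3 at 132 and 126, below model 2, with a sum of 18835 and Fcgr3 at 169.

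**Figure D3:**
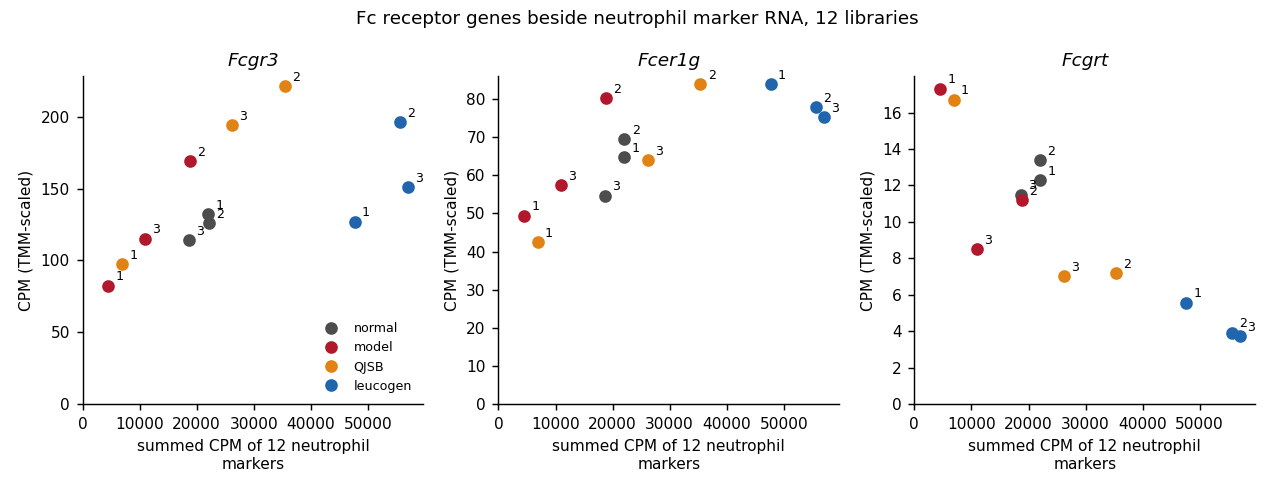
CPM of Fcgr3, Fcer1g and Fcgrt (vertical axes) against the summed CPM of 12 neutrophil marker genes (horizontal axes) in each of the 12 libraries, coloured by group and numbered by replicate. Among model and QJSB libraries Fcgr3 climbs from 82.5 to 221 CPM with the marker sum, and Fcgrt is lowest in the 3 leucogen libraries, which have the highest sums.

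The balance between inhibitory and activating receptors was given per library as Fcgr2b over the sum of Fcgr1, Fcgr3 and Fcgr4, all in FPKM. It was 0.332, 0.381 and 0.322 in normal, 0.586, 0.450 and 0.683 in model, 0.519, 0.344 and 0.411 in QJSB and 0.615, 0.422 and 0.521 in leucogen. Model and leucogen lay above normal without overlap, and QJSB overlapped with the other 3 groups. The means were 0.345 ± 0.0316, 0.573 ± 0.117, 0.425 ± 0.0884 and 0.519 ± 0.0964 (SD, n = 3). An exact permutation test over all 369600 assignments of the libraries gave p = 0.0485 for a difference among the 4 groups, and 0.146 after Benjamini-Hochberg adjustment over the 3 ratios tested, so it did not hold up to the correction. Model against normal and leucogen against normal each had an exact two-sided permutation p of 0.1, the smallest that 3 libraries against 3 can give. The unadjusted p passed 0.05 when any of 8 libraries was left out, reaching 0.119 without normal 3. On the per kb scale the means were 0.307, 0.521, 0.375 and 0.464, in the same order of groups. Fcgr2b and Fcgr3 enter the ratio on opposite sides, so reads placed between these 2 genes would move it.

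The chain per activating receptor, Fcer1g over the same sum, had means of 0.906 ± 0.130 in normal, 0.897 ± 0.0889 in model, 0.693 ± 0.0725 in QJSB and 0.923 ± 0.216 in leucogen (SD, n = 3). QJSB libraries held 0.763, 0.698 and 0.618, below all model libraries (0.807 to 0.985) and all normal libraries (0.798 to 1.05). Among the 4 groups the exact permutation p was 0.164 (0.246 adjusted over the 3 ratios), and each of these pairs had the smallest exact permutation p, 0.1. Fcgr4 over Fcgr3, in FPKM, had means of 0.321 in normal, 0.332 in model, 0.276 in QJSB and 0.319 in leucogen. All groups overlapped, with an exact permutation p of 0.668 among groups. Per kb of the longest transcript these means were 0.113, 0.117, 0.0972 and 0.112, so the size of this ratio depends on the length used.

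**Figure D4:**
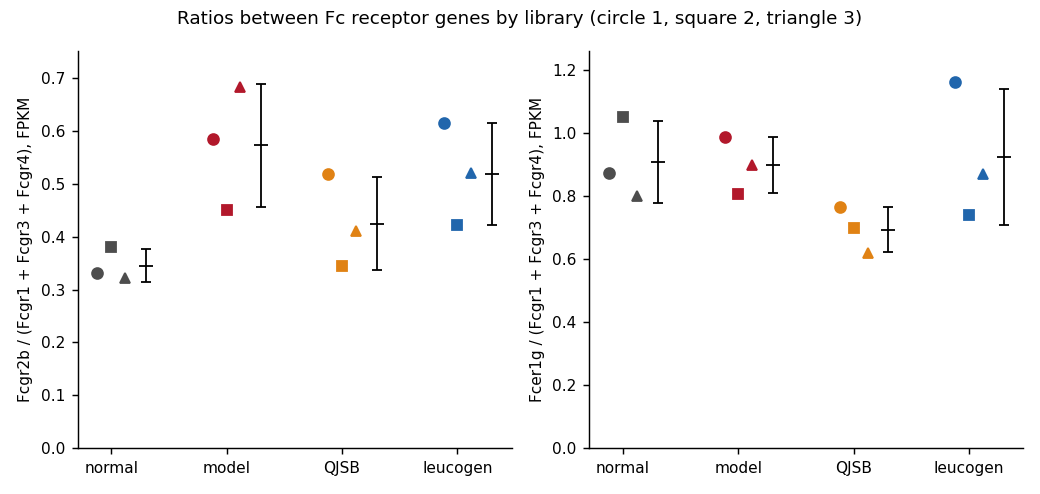
Ratio of Fcgr2b (left) and of Fcer1g (right) to the sum of Fcgr1, Fcgr3 and Fcgr4 in FPKM, on linear axes from 0; coloured marks are single mice, numbered by shape, and black bars are the mean ± SD (n = 3). On the left the normal libraries, at 0.322 to 0.381, lie below all model and leucogen libraries, and on the right the QJSB libraries, at 0.618 to 0.763, lie below all normal and model libraries.

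The pathway downstream of these receptors was described with a list of 37 genes for kinases, adaptors, actin regulators and inhibitors. In model against normal 4 rose and 3 fell beside 35.1% of all genes called, with a median log2 fold change of 0.05 beside 0.02 for all genes tested. In QJSB against model none passed (median 0.23 beside -0.02), and in leucogen against model 2 rose and 1 fell beside 23.1% (median 0.06 beside -0.05). Against normal, 8 rose and 3 fell in QJSB beside 37.9% (median 0.29 beside 0.02), and 9 rose and 6 fell in leucogen beside 37.7% (median 0.11 beside -0.01). QJSB exceeded leucogen for 6 of the 37 and fell below it for none, beside 24.6% of all genes called (median 0.17 beside 0.03).

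Among the genes past the cutoff in model against normal were Gab2, a docking adaptor, with a log2 fold change of 1.28 ± 0.16 (SE, adjusted p = 4.0e-04), Arpc1b, a subunit of the actin-branching Arp2/3 complex, with 0.75 ± 0.14 (SE, adjusted p = 0.00347), and Vav1, an exchange factor for Rac, with 0.70 ± 0.14 (SE, adjusted p = 0.00509). Syk, the kinase that binds the phosphorylated Fcer1g chain, went from 986 ± 14.7 CPM in normal to 454 ± 29.8 in model, 539 ± 100 in QJSB and 564 ± 36.0 in leucogen (SD, n = 3). Its fall against normal passed in all 3 (adjusted p = 2.0e-04, 0.00352 and 3.2e-05), and it is named here after its values were seen. B cells also express Syk, and the part of the lower B cell marker RNA in its fall was not tested. In leucogen against model the Src family kinase Fgr, which phosphorylates such chains, had a log2 fold change of 1.26 ± 0.17 (SE, adjusted p = 0.00282), while Cblb, a ubiquitin ligase that limits signalling, fell by 1.16 on the log2 scale (adjusted p = 0.00379). Cblb was likewise lower in leucogen than in QJSB (QJSB over leucogen 1.11 ± 0.13 SE, adjusted p = 0.00285). Rac2, a GTPase of neutrophil actin, rose in QJSB against normal (1.18 ± 0.29 SE, adjusted p = 0.0124, up to 0.0502 under the alternatives), and Vav3 in leucogen against normal (1.09 ± 0.09 SE, adjusted p = 4.7e-06).

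Receptors that share the Fcer1g chain and the sister adaptor Tyrobp moved in both directions. Of 8 such receptors 7 were tested in model against normal, of which 1 rose and 3 fell beside 35.1% of all genes called. Clec4d, a lectin receptor of myeloid cells, went from 53.3 ± 10.6 CPM in normal to 8.63 ± 5.36 in model, 8.61 ± 1.96 in QJSB (SD, n = 3), and its log2 fold change in leucogen against normal was -2.55 ± 0.16 (SE, adjusted p = 1.1e-06). It is named after its values were seen. Clec4e, its partner receptor for microbial glycolipids, rose in leucogen against normal (0.98 ± 0.13 SE, adjusted p = 1.1e-04). The other 2 that fell in model were Fcer1a, the antibody-binding chain of the mast cell and basophil receptor for immunoglobulin E, and Ncr1, a receptor of NK cells. Tyrobp held 281 ± 38.7 CPM in normal, 155 ± 44.1 in model, 170 ± 49.5 in QJSB and 303 ± 19.6 in leucogen (SD, n = 3). It fell in model against normal by 0.85 on the log2 scale (adjusted p = 0.0157) and rose in leucogen against model (0.97 ± 0.21 SE, adjusted p = 0.0119, up to 0.0504 under the alternatives). Whether these changes differ from that of Fcer1g was not tested.

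Fc receptors of B cells were lower after cyclophosphamide, where Fcgr2b was higher. Fcmr, the receptor for immunoglobulin M, was at 33.9 ± 5.74 CPM in normal and at 0.0621 ± 0.0582 in model, 0.0358 ± 0.0620 in QJSB and 0.0265 ± 0.0459 in leucogen (SD, n = 3). Fcer2a, the low-affinity receptor for immunoglobulin E, went from 30.9 ± 4.74 CPM to 0.0577 ± 0.0577 in model, and Fcrla, an intracellular relative of these receptors, from 59.3 ± 3.15 to 1.07 ± 1.02. All 3 fell in model, QJSB and leucogen against normal, with adjusted p-values of 1.7e-04 or less. Fcrl1, a further B cell relative, fell as well, from 34.8 ± 1.93 CPM in normal to 1.44 ± 0.606 in model, and stood at 6.64 ± 0.609 in leucogen (SD, n = 3). These genes come from a list of 9 other Fc receptor and partner genes, of which 6 were tested against normal. In model, QJSB and leucogen 4 of the 6 fell and 0 rose, beside 35.1%, 37.9% and 37.7% of all genes called. The remaining genes tested, Trim21 and B2m, did not pass.

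Of the 4 members on chromosome 1, Fcgr2b lies 42.4 kb from Fcgr4, Fcgr4 lies 21.4 kb from Fcgr3 and Fcer1g lies 165 kb beyond Fcgr3. In leucogen against normal their log2 fold changes were 0.92 (Fcgr2b), 0.34 (Fcgr4), 0.37 (Fcgr3) and 0.35 (Fcer1g), all above 0, and in QJSB against normal 0.66, 0.25, 0.47 and 0.02. In model against normal they were 0.72, 0.04, -0.02 and -0.01. Of these 4, only Fcgr2b passed both the fold and the adjusted cutoff in these 3 comparisons, which share the normal libraries. Fcer1g had an adjusted p of 0.0226 in leucogen against normal (up to 0.279 under the alternatives) with a change under 1.5-fold. Whether the 4 genes differ from one another was not tested. Sdhc, a subunit of mitochondrial complex II between Fcgr3 and Fcer1g, had a log2 fold change of 0.84 in model against normal (adjusted p = 0.00788) and of -1.08 in leucogen against model (adjusted p = 0.00808). An antisense gene over Fcgr2b, Gm38204, had at most 4 counts in any library.

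**Figure D5:**
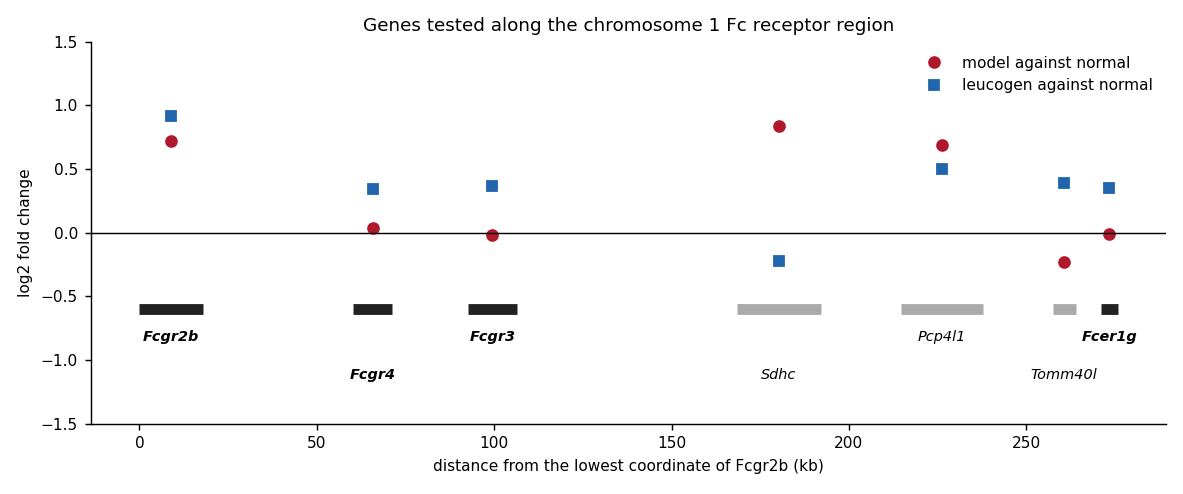
Log2 fold changes (vertical axis) of the genes tested along the chromosome 1 region, against the distance in kb from the lowest coordinate of Fcgr2b; bars below the points show the extent of each gene, dark and bold for Fc receptor genes. Fcgr2b is raised in model and leucogen (0.72 and 0.92), Fcgr3, Fcgr4 and Fcer1g lie between -0.02 and 0.37, and Sdhc stands at 0.84 in model.

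Across the 12 libraries the levels of Fcgr3, Fcgr4 and Fcer1g ran most alike among the members, with Pearson's r of log2 CPM of 0.84 for Fcgr3 and Fcgr4, 0.76 for Fcgr3 and Fcer1g and 0.72 for Fcgr4 and Fcer1g. Fcgr1 ran with none of them (r from -0.50 to 0.46), and Fcgrt ran opposite to Fcgr2b (r = -0.73). Of 9842 genes searched, those most like Fcgr1 were Ncl (r = 0.94), Vldlr and Zfp599 (both 0.91). For Fcgr2b they were Rapgef5 (0.98), Cab39 and Dgkg (both 0.97), and for Fcgr3 they were Chil1, Tmed8 (both 0.91) and Inpp5j (0.89). Fcgr4 was most like Pfkfb1 (0.91), Tbc1d23 (0.87) and Tmed8 (0.85), and Fcer1g most like Slfn2 (0.95), Atp6v1e1 (0.93) and S100a6 (0.92). Fcgrt was most like Prcp and Eif2ak4 (both 0.96) and Marc2 (0.94). Each value rests on 12 libraries that share 4 groups and a common scaling, and is a description only.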

How the data were processed

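RNA of total femoral marrow from 12 mice, 3 in each of 4 groups, was sequenced by the authors as strand-specific libraries depleted of ribosomal RNA, filtered with Seqtk and mapped with Hisat2 to GRCm38 (mm10). The counting program and annotation are not given in the sources used here. The deposited table holds, for each library, whole-number read counts without normalization and FPKM values that the authors computed from fragments and transcript length. Its columns are headed Blank, Model, Positive and Stilbene, taken as normal, model, leucogen and QJSB, in that order, by meaning and elimination. Set against the group means in the study's supplement, this reading matched within 1% for at least 298 of 300 genes in each of its comparisons, and any other reading for at most 10. Of the value columns, 0 were left unused.

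Counts were tested in R 4.3.3 with edgeR 4.0.16 (TMM, filterByExpr, robust glmQLFit, glmQLFTest), each pair of groups in its own fit, and calls required a fold over 1.5 and a Benjamini-Hochberg adjusted p under 0.05. Intervals are 95% intervals from the SE and the t distribution with the degrees of freedom of the fit. The 6 members and all gene and marker lists were chosen with earlier results of these data known. Genes named from the lists are, per comparison, up to the 3 largest rises and falls past the cutoff whose groups do not overlap, at a mean of at least 5 CPM; some items are not reported here. The genes most alike were the 3 with the highest Pearson correlation of log2 CPM (prior count 2) among named protein genes at a mean of at least 5 CPM. Alternatives were DESeq2 1.42.0, its size factors, total counts, no filter, a minimum of 10 counts per library, a single fit of the 12 libraries, a replicate block, limma 3.58.1 on log2(FPKM + 0.1), and each library left out. Ratios per kilobase of the longest transcript were added after the data had been seen. Whether replicate numbers pair the libraries was examined through the correlation of deviations from the group mean between libraries with 1 number. All 3 values were above 0 for QJSB and model (r = 0.451, 0.135 and 0.102) and for QJSB and leucogen (r = 0.174, 0.157 and 0.11). In the other pairs of groups they were of mixed sign. Correlations between libraries with different numbers are not given here, so these values do not settle whether the numbers pair the libraries. Promoters are from RefSeq, with all 6 members matched, and coding sequences and transcript lengths from GENCODE M21. The fits were tested on simulated data. Totals of 11172547 to 18545198 counts limit counting error only. Each library is 1 mouse. The edgeR p-values rest on the spread between 3 mice a group, with the spread of each gene moderated toward that of the other genes tested.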

Additional observations from a re-analysis of the deposited data

How the results depend on the processing

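Of the members' log2 fold changes under the alternatives, 486 kept their direction and their side of the threshold, 6 came past it, 10 fell short of it and 2 turned sign; a value that was not called and crossed 0 by less than its SE was counted among the first. The number of members called in model against normal (2), leucogen against normal (2) and QJSB against model (0) was the same under every alternative. In leucogen against model it was 2, and 1 to 5 with a library left out: 5 without model 2, and 1 without leucogen 1 or leucogen 3. In QJSB against normal it was 1, and 0 to 3 with a library left out: 0 without normal 3 and 3 without QJSB 1. Without QJSB 3 it stayed at 1, but the member called was Fcgr1 in place of Fcgr2b. In QJSB against leucogen it was 1, but 0 with total counts, 0 with limma-trend on FPKM and 0 to 1 with a library left out. The exact p of the inhibitory to activating ratio ran from 0.0262 to 0.119 with a library left out, that of Fcer1g to activating receptors from 0.0667 to 0.438 and that of Fcgr4 to Fcgr3 from 0.267 to 0.846. The sign turned for Fcgr4 in model against normal (-0.36 to 0.22 with a library left out, the lowest without model 2) and for Fcer1g in QJSB against normal (-0.22 to 0.24, the lowest without QJSB 2). Fitted with the replicate block, the members called were 2, 0, 2, 1, 2 and 1 in the 6 comparisons, as without it, and the exact p of the 3 ratios was 0.0243, 0.210 and 0.698. The causes were not tested. With 3 mice a group, leaving out 1 changes calls near the threshold, Fcgr1 has few counts, and shared bases of Fcgr2b and Fcgr3 leave some reads unassignable.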
